A study of Drosophila melanogaster with 7 samples.

Results

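The aminoacyl-tRNA synthetases of the adult Drosophila midgut are 35 of the 10902 genes in the deposited count table. They were chosen by symbol alone, as every row whose name has the form of a synthetase symbol, including the bifunctional GluProRS and the subunits alpha-PheRS and beta-PheRS. The 20 symbols without the ending -m are called cytosolic here and the 15 with it mitochondrial. RNA was sequenced from dissected midguts 7 days after adult flies were moved from 18 to 29 °C. All 7 libraries carried esgts, a temperature-sensitive Gal4 driver under escargot control that acts in intestinal stem cells and enteroblasts. The control group carried esgts and w1118 (n = 3), the group labelled Shn-RNAi carried esgts and an RNAi transgene against schnurri (n = 2), and the group labelled Shn-RNAi puc carried esgts, that transgene and 1 copy of the puckered allele PucE69 (n = 2). The RNA came from whole midgut, most of whose cells do not express the driver, and the control carried no RNAi transgene, so an effect of its strain background cannot be told apart from an effect of the knockdown. The age of the flies at the shift, their sex and the number pooled per library are not given in the sources used here.

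A synthetase joins 1 amino acid to its matching tRNAs, and the charged tRNA then brings that amino acid to the ribosome. Animal cells translate in the cytosol and in the mitochondrial matrix, and both sets of synthetases are encoded in the nucleus. Mitochondrial enzymes serve only the few proteins encoded by mitochondrial DNA, which are subunits of the respiratory chain and of the ATP synthase. Some genes supply both compartments, and for those amino acids no separate mitochondrial gene is listed: in the table GlyRS, HisRS, LysRS and ThrRS have no partner ending in -m, and neither has GlnRS, because mitochondria make glutaminyl-tRNA by another route. In the midgut, intestinal stem cells divide through life and enterocytes make large amounts of secreted digestive enzymes.

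Total counts ran from 11552527 to 18490676 per library, and every synthetase had at least 54 counts in every library. Levels are given as CPM, counts relative to the library's total after scaling with TMM, a method that sets the bulk of genes equal between libraries, and they are divided by the length of the longest transcript in kb wherever genes are compared with each other. The RNAi target, shn, which encodes a transcription factor of the BMP pathway, had 42.5, 47.4 and 42.4 CPM in control, then 68.6 and 54.1 CPM under the Shn-RNAi label and 66.5 and 69.7 CPM under the Shn-RNAi puc label. It was not lower where the label names its knockdown, and in Shn-RNAi puc it was called higher (log2 change 0.63, edgeR adjusted p = 0.031). Reads of the RNAi transgene, if counted as shn, cannot be told apart from those of the gene here. The transcript of puc, the gene of the PucE69 allele, stood at 72.3, 70.2 and 82.2 CPM in the control libraries. It stood at 93.5 and 101 CPM in Shn-RNAi and at 86.5 and 88.3 CPM in Shn-RNAi puc. With the allele it was not lower than in control (log2 change 0.22, edgeR adjusted p = 0.34). Both Shn-RNAi puc libraries lay below both Shn-RNAi libraries, but the difference was not called (log2 change -0.16, edgeR adjusted p = 0.92). Each direction below is between libraries as labelled. Among marker lists, the summed level of 9 visceral muscle genes was 3138 to 3326 CPM in control, 1948 to 2123 CPM in Shn-RNAi and 1549 to 1852 CPM in Shn-RNAi puc, and that of 11 enterocyte genes was 129334 to 162993, 82065 to 141914 and 81002 to 89265 CPM. The 9 intestinal progenitor genes summed to 136 to 175, 226 to 254 and 187 to 229 CPM. The 11 enterocyte genes were all in the table. Each row of the table holds at least 5 counts over the libraries, so every listed gene with a row counts as detected whatever the tissue. Lsp2, Fbp1 and Lsp1beta of the fat body list and vas and bam of the germline list had no row. The Malpighian tubule, hindgut, hemocyte and reproductive tract lists also lacked genes. Over the 7 libraries, 6 germline genes summed to 4.46 to 9.47 CPM. By contrast, 6 Malpighian tubule genes summed to 276 to 354 CPM and 6 fat body genes to 339 to 849 CPM. In whole tissue, fewer cells of a type and less RNA per cell cannot be told apart.

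In control midguts the cytosolic enzymes were the more abundant set. Their median level was 23.6 CPM per kb (range 8.77 to 98.5) and that of the mitochondrial enzymes 5.13 CPM per kb (1.42 to 34.2). Among the 9076 genes tested, the median cytosolic member sat at percentile 75.5 of level per kb and the median mitochondrial member at percentile 42.4. The order from the top was AspRS at 98.5 ± 1.41 CPM per kb (SD, n = 3 here and for each level that follows), SerRS at 55.9 ± 1.02, TyrRS at 52.8 ± 3.60 and AsnRS at 39.1 ± 0.977. SerRS and TyrRS overlapped between libraries and so did not differ beyond their spread. A wide middle group from beta-PheRS (26.9 ± 0.749) to GlyRS (22.1 ± 1.77) held 7 cytosolic genes in which each overlapped the next. The lowest cytosolic gene was MetRS, which charges both initiator and elongator methionine tRNAs, at 8.77 ± 0.388 CPM per kb.

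By mean level, 1 mitochondrial gene ranked among the cytosolic ones. PheRS-m, the single-chain mitochondrial phenylalanine enzyme, stood at 34.2 ± 1.61 CPM per kb, sixth of the 35 and above 15 of the 20 cytosolic genes, with LysRS (34.7 ± 0.325) as its overlapping neighbour. The means of the other 14 mitochondrial genes lay below those of all cytosolic genes, from TyrRS-m (8.50 ± 0.481), whose libraries overlapped those of MetRS, down to MetRS-m (1.98 ± 0.0887) and ValRS-m (1.42 ± 0.0988). The cytosolic phenylalanine enzyme is built from equal numbers of a catalytic alpha and a beta subunit, and the transcripts of the 2 genes stood close together at 26.1 ± 0.711 CPM per kb for alpha-PheRS and 26.9 ± 0.749 for beta-PheRS. Dividing by coding length instead gave medians of 28.4 CPM per coding kb for the cytosolic set and 5.95 for the mitochondrial set. The order of single genes then changed in part. MetRS-m stood at 4.90 CPM per coding kb, above ArgRS-m (4.46), GluRS-m (3.23) and IleRS-m (2.80), and ValRS-m was still the lowest (1.55). Strand use in counting is not stated, and 63.9% of the exonic bases of AspRS overlap an antisense RNA gene on the other strand, asRNA:CR45141, so reads of the 2 genes cannot be told apart there. For GluProRS 16.6% overlap another antisense RNA gene. Protein-coding genes on the other strand overlap 14.3% of CysRS-m, 13.9% of SerRS-m and 11.8% of ArgRS-m. No exonic overlap was found for PheRS-m, MetRS, ThrRS, beta-PheRS or MetRS-m.

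**Figure D1:**
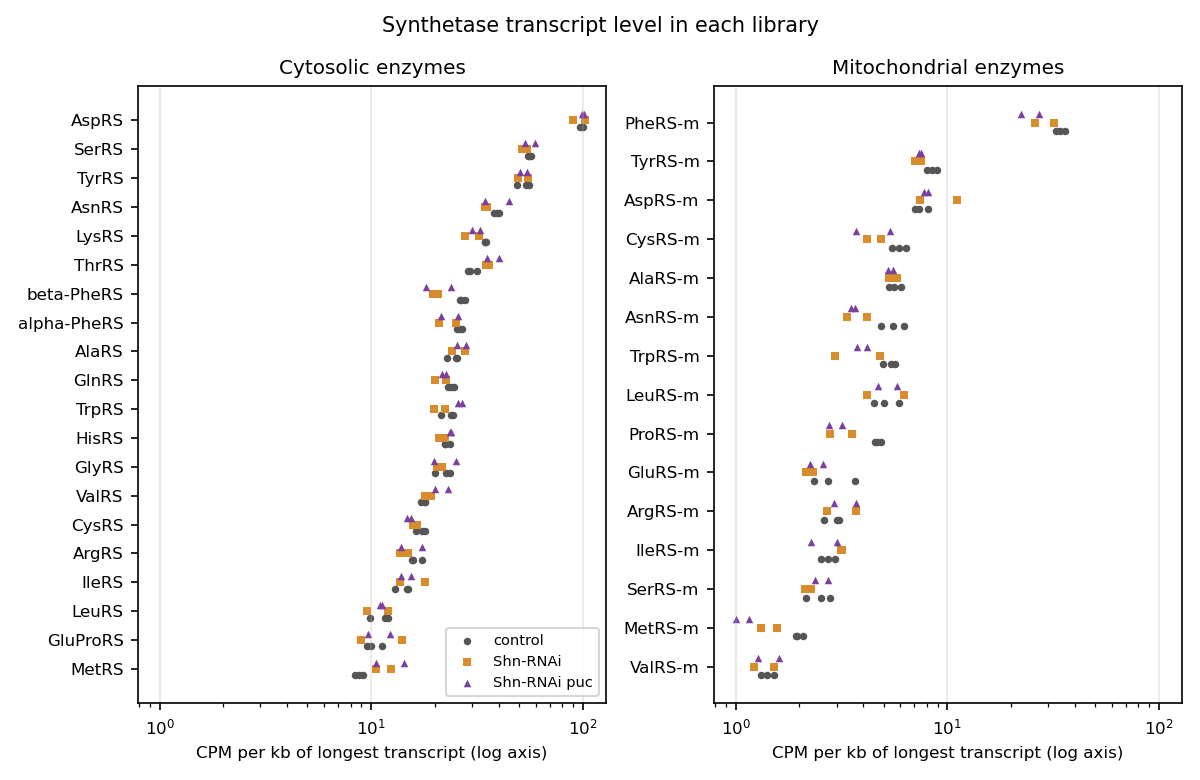
Level of each synthetase in each library, in CPM per kb of longest transcript on a log axis, with cytosolic genes on the left and mitochondrial genes on the right, ordered by control mean; each symbol is 1 library (3 control, 2 Shn-RNAi, 2 Shn-RNAi puc). The cytosolic genes run from 8.77 to 98.5 in control, PheRS-m stands apart from the other mitochondrial genes at 34.2, and the MetRS-m symbols of both other groups lie left of control.

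Synthetase transcripts varied little between libraries. The highest of the 7 levels was 1.27 times the lowest for the median cytosolic gene and 1.58 times for the median mitochondrial gene, against 1.83 times for the median of all genes tested. The steadiest cytosolic range was 1.14 times and the widest 1.70 times, and mitochondrial ranges ran from 1.15 to 2.09 times. Within the control group alone the median coefficient of variation was 4.61% for cytosolic, 7.26% for mitochondrial and 11.3% for all genes. All genes were taken here without matching by level, and the part of transcript level in these spreads was not tested.

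Between Shn-RNAi and control, no synthetase changed past the threshold. The edgeR quasi-likelihood test, with Benjamini-Hochberg adjustment over 9076 genes, called 0 of 35 synthetases at an adjusted p under 0.05, and DESeq2 also called 0. The same test called 9.62% of all genes, 6.06% higher and 3.56% lower. At an unadjusted p under 0.05, 5 synthetases were found, 4 of them lower (beta-PheRS, ProRS-m, AsnRS-m and MetRS-m) and 1 higher (MetRS). Of all 9076 genes 2432 (26.8%) had such a p, 1083 lower and 1349 higher. The 95% interval of the change lay within 2-fold in either direction for 20 of 20 cytosolic and 13 of 15 mitochondrial genes, so larger changes in those 33 genes lay outside the intervals.

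The direction of the small differences was mostly downward in both compartments. Of the cytosolic genes 14 of 20 and of the mitochondrial genes 11 of 15 had a log2 change below 0, against 47.6% of all genes. The median log2 change was -0.07 for the cytosolic set and -0.23 for the mitochondrial set, beside 0.03 for all genes. Both Shn-RNAi libraries lay below all 3 control libraries for 8 of 20 cytosolic genes (40%) and 8 of 15 mitochondrial genes (53.3%), where 21.2% of all genes did so. Both lay above for 2 cytosolic genes and 1 mitochondrial gene, where 22.1% of all genes did so. The muscle marker sum given above was lower in both of these libraries than in every control library, and the enterocyte sum was lower in library 1 (82065 CPM) and within the control range in library 2 (141914 CPM); their part in the result was not tested.

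Of the mitochondrial enzymes, the prolyl enzyme ProRS-m (FBgn0027082; 3L:2650161-2651850, minus strand, Ensembl annotation of BDGP6.54) had 6.95, 7.08 and 7.41 CPM in control against 4.26 and 5.36 CPM in Shn-RNAi. Its log2 change was -0.57 (SE 0.20, edgeR adjusted p = 0.11). The asparaginyl enzyme AsnRS-m (FBgn0034177; 2R:17001994-17003599, plus strand) had 8.24, 7.19 and 9.24 CPM in control and 6.22 and 4.99 CPM in Shn-RNAi, a log2 change of -0.55 (SE 0.20, edgeR adjusted p = 0.13). Neither gene's Shn-RNAi libraries overlapped control, and neither difference passed the test. MetRS-m had 8.38, 8.30 and 9.0 CPM in control against 5.72 and 6.75 CPM in Shn-RNAi (log2 change -0.46, SE 0.18, edgeR adjusted p = 0.16). The tryptophanyl enzyme TrpRS-m stood at 12.2, 13.5 and 14.1 CPM in control and at 11.9 and 7.34 CPM in Shn-RNAi, a log2 change of -0.46 with an edgeR adjusted p of 0.23. Its 2 Shn-RNAi libraries were far apart: without library 1 the log2 change was -0.85 with an adjusted p of 0.038, and without library 2 it was -0.15.

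Among the cytosolic enzymes, beta-PheRS (FBgn0039175; 3R:24250460-24252679, minus strand), the subunit that carries the editing site of the phenylalanine enzyme, was the lowest relative to control. It stood at 52.1, 54.4 and 51.8 CPM in control and at 38.6 and 40.5 CPM in Shn-RNAi (log2 change -0.42, SE 0.16, edgeR adjusted p = 0.14). Its partner subunit alpha-PheRS stood at 43.0, 45.4 and 44.6 CPM in control and at 35.4 and 42.6 CPM in Shn-RNAi. Both subunits were lower in both libraries, and neither passed the test. LysRS stood at 76.9, 77.9 and 76.4 CPM in control and at 61.6 and 72.1 CPM in Shn-RNAi (log2 change -0.21, edgeR adjusted p = 0.41). In the other direction, MetRS (FBgn0034401; 2R:18846858-18850599, minus strand) had 28.6, 31.2 and 29.7 CPM in control against 42.2 and 36.0 CPM in Shn-RNAi, a log2 change of 0.39 (SE 0.17, edgeR adjusted p = 0.18). ThrRS, which has no separate mitochondrial gene in the table, stood at 80.6, 88.3 and 82.3 CPM in control and at 98.01 and 101.3 CPM in Shn-RNAi (log2 change 0.25, SE 0.14, edgeR adjusted p = 0.30). MetRS and ThrRS were the 2 cytosolic genes whose Shn-RNAi libraries both lay above control.

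Between Shn-RNAi puc and control, 1 synthetase fell and none rose. MetRS-m (FBgn0027083; 3R:14249043-14259991, minus strand), the enzyme that charges the mitochondrial methionine tRNA, fell from 8.38, 8.30 and 9.0 CPM in control to 5.00 and 4.31 CPM. Both libraries lay below every control library and also below both Shn-RNAi libraries. The log2 change was -0.88 (SE 0.19, 95% interval -1.31 to -0.44), a level 0.545 times that of control, with an edgeR adjusted p of 0.021. DESeq2 called the same gene and no other synthetase (log2 change -0.90, adjusted p = 0.014). The test called 15% of all genes in this comparison, 8.76% higher and 6.25% lower, so 1 lower call among 35 synthetases is a smaller share than that background. The call did not hold in every subset of the libraries: with 1 library left out at a time it held in 3 of 7 refits, and it was lost without control library 1 (adjusted p = 0.072), control library 3 (0.067), Shn-RNAi puc library 1 (0.074) or Shn-RNAi puc library 2 (0.16), while the log2 change stayed between -0.99 and -0.77. Scaling by total counts in place of TMM, an alternative chosen after the data were seen, gave -0.56 with an adjusted p of 0.073, where the median of all genes stood 0.35 higher.

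At an unadjusted p under 0.05, 6 synthetases were found, 4 mitochondrial genes lower and 2 cytosolic genes higher. Of all 9076 genes 2774 (30.6%) reached that level, 1242 lower and 1532 higher. The lower genes besides MetRS-m were ProRS-m, AsnRS-m and PheRS-m. ProRS-m stood at 4.81 and 4.17 CPM (log2 change -0.67, SE 0.20, edgeR adjusted p = 0.061) and AsnRS-m at 5.46 and 5.23 CPM (log2 change -0.62, SE 0.20, edgeR adjusted p = 0.078). PheRS-m (FBgn0275436; 2R:13968308-13969902, plus strand) had 54.7, 49.7 and 52.2 CPM across the controls, 39.5 and 48.5 CPM in Shn-RNAi and 41.4 and 33.9 CPM in Shn-RNAi puc, where its log2 change was -0.47 (SE 0.16, edgeR adjusted p = 0.088). These 3 genes lay below every control library in both groups but did not pass the test. The higher genes were MetRS, at 48.7 and 36.0 CPM (log2 change 0.50, SE 0.17, edgeR adjusted p = 0.081), and ThrRS, at 112 and 99.0 CPM (log2 change 0.34, SE 0.14, edgeR adjusted p = 0.15). MetRS varied more between its 2 Shn-RNAi puc libraries than among the 3 controls.

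Next in order among the cytosolic genes were beta-PheRS and ValRS. The former stood at 46.9 and 35.7 CPM in Shn-RNAi puc (log2 change -0.35, SE 0.16, edgeR adjusted p = 0.17). ValRS stood at 58.1, 61.1 and 61.1 CPM in control, at 65.1 and 60.6 CPM in Shn-RNAi and at 78.2 and 67.7 CPM in Shn-RNAi puc, a log2 change of 0.28 (SE 0.14, edgeR adjusted p = 0.21). Its partner ValRS-m, the least abundant synthetase, stood at 4.94, 4.59 and 4.3 CPM in control, at 4.93 and 3.96 CPM in Shn-RNAi and 4.16 and 5.23 CPM in Shn-RNAi puc, and its groups overlapped. AspRS, the most abundant, stood at 222, 218 and 224 CPM, then 201 and 229 CPM, then 222 and 227 CPM.

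The medians of the sets again differed. The median log2 change was 0.02 for the cytosolic set, the same as for all genes (0.02), and -0.19 for the mitochondrial set. With 1 library left out at a time, the mitochondrial median was nearest 0 without control library 3, at -0.079, and the cytosolic median was -0.065 without Shn-RNAi puc library 1 and 0.10 without Shn-RNAi puc library 2. Below 0 were 8 of 20 cytosolic and 10 of 15 mitochondrial genes, beside 47.6% of all genes. Both Shn-RNAi puc libraries lay below all controls for 4 of 20 cytosolic and 7 of 15 mitochondrial genes (46.7%), where 26.4% of all genes did so, and above all controls for 5 cytosolic and 0 mitochondrial genes, where 28.5% of all genes did so. Changes of more than 1.5-fold were found in 3 mitochondrial and 0 cytosolic genes, and in 29.3% of all genes. The intervals lay within 2-fold for 20 of 20 cytosolic and 12 of 15 mitochondrial genes. Both comparisons use the same 3 control libraries, so their likeness is not independent. Visceral muscle and enterocyte marker sums were lower in both of these libraries than in every control library, with 6 of 9 muscle genes called lower here and 4 of 9 in Shn-RNAi, and 3 of 11 enterocyte genes called lower and 2 higher here and 1 lower and 3 higher in Shn-RNAi. Their part in the lower mitochondrial levels was not tested.

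**Figure D2:**
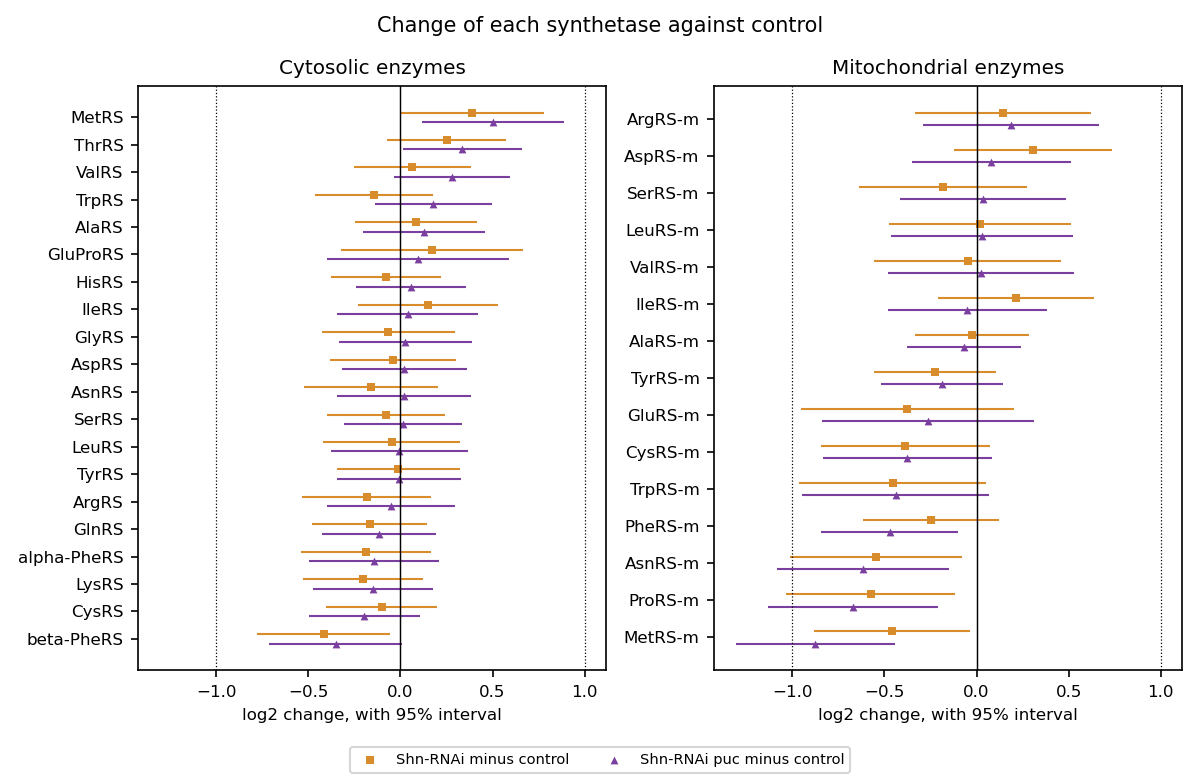
Log2 change of each synthetase against control, with its 95% interval from the edgeR fit; squares are Shn-RNAi (n = 2) and triangles Shn-RNAi puc (n = 2), each against the same 3 control libraries, and dotted lines mark 2-fold. Most intervals cross 0; the interval of MetRS-m in Shn-RNAi puc runs from -1.31 to -0.44 and that gene alone passed the adjusted test.

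No synthetase differed past the threshold between the groups with and without the puc allele. Between Shn-RNAi puc and Shn-RNAi the edgeR test called 0 of 35, with 0 at an unadjusted p under 0.05 and 0 by DESeq2; it called 0.143% of all genes. Intervals of all 35 changes lay within 2-fold. The median log2 change was 0.06 for the cytosolic, 0.01 for the mitochondrial set and -0.01 for all genes. Below 0 were 3 of 20 cytosolic and 7 of 15 mitochondrial genes. The cytosolic median changed sign without Shn-RNAi puc library 1, to -0.029.

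The genes with the smallest p in that comparison show the size of the spread. TrpRS stood at 41.1, 36.0 and 40.3 CPM in control, at 37.6 and 33.2 CPM in Shn-RNAi and at 45.0 and 43.5 CPM in Shn-RNAi puc (log2 change against Shn-RNAi 0.32, SE 0.15, edgeR adjusted p = 0.81). The log2 difference of MetRS-m was -0.42 (SE 0.20, edgeR adjusted p = 0.82), with both puc libraries below both Shn-RNAi libraries. HisRS, which has no separate mitochondrial gene in the table, stood at 63.7 and 59.6 CPM in Shn-RNAi and at 67.3 and 68.1 CPM in Shn-RNAi puc, with controls at 63.7, 67.5 and 64.1 CPM. For TrpRS and HisRS the 2 groups did not overlap. Of all 35 synthetases, 4 (11.4%) were higher and 3 (8.57%) lower in Shn-RNAi puc without overlap, where 16.1% and 11.9% of all genes were. AsnRS stood at 90.5, 93.1 and 95.1 CPM in control, at 84.2 and 82.1 CPM in Shn-RNAi and at 107 and 81.7 CPM in Shn-RNAi puc, and its 2 puc libraries were on either side of the Shn-RNAi pair. IleRS-m stood at 7.31, 8.52 and 7.88 CPM in control, at 9.19 and 9.17 CPM in Shn-RNAi and at 8.70 and 6.57 CPM in Shn-RNAi puc, while IleRS stood at 58.3, 57.3 and 50.4 CPM, then 69.7 and 53.1 CPM, then 59.9 and 53.9 CPM. AspRS-m stood at 30.6, 33.6 and 29.2 CPM in control, at 46.3 and 30.8 CPM in Shn-RNAi and at 32.2 and 33.8 CPM in Shn-RNAi puc. A single library, Shn-RNAi library 1, was high for AspRS-m, and without it the log2 difference between the 2 RNAi groups changed sign, to 0.10.

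**Figure D3:**
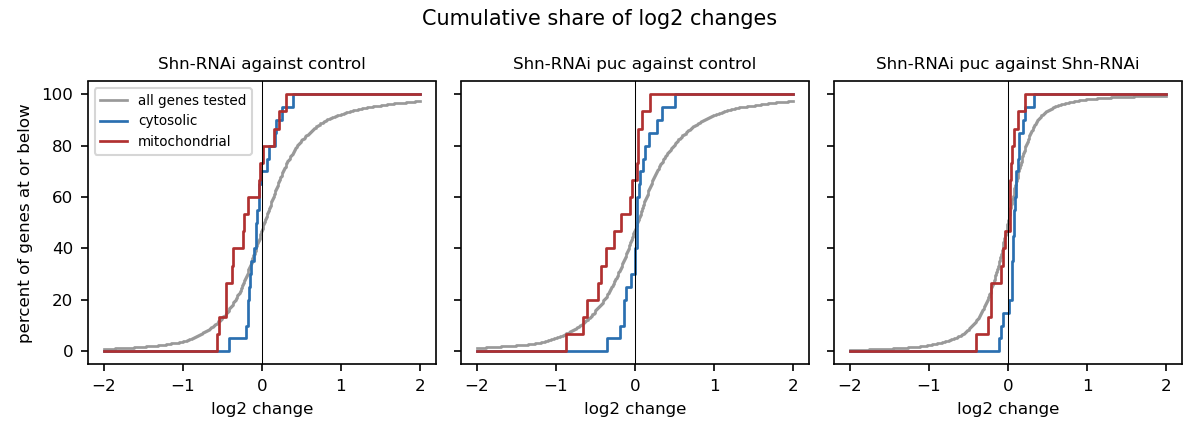
Cumulative share of genes at or below each log2 change, for all genes tested (grey), the 20 cytosolic (blue) and the 15 mitochondrial synthetases (red), in the 3 comparisons; the axis stops at 2 on either side and a few genes of the whole table lie beyond it. Both synthetase curves are steeper than that of all genes, and the red curve lies left of the blue one against control, with medians of -0.23 and -0.07 for Shn-RNAi and -0.19 and 0.02 for Shn-RNAi puc.

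Summed over members, the cytosolic enzymes held 1388, 1404 and 1383 CPM in control, then 1366 and 1357 CPM in Shn-RNAi and 1507 and 1354 CPM in Shn-RNAi puc. The mitochondrial enzymes summed to 211, 215 and 209 CPM, then 204 and 186 CPM, then 189 and 173 CPM. The cytosolic sums overlapped between groups, while every mitochondrial sum outside control lay below every control sum. PheRS-m made up a large share of these sums: the other 14 mitochondrial genes summed to 156, 166 and 156 CPM in control, 164 and 138 CPM in Shn-RNAi and 148 and 139 CPM in Shn-RNAi puc, and without PheRS-m the Shn-RNAi sums overlapped control. The ratio of the 2 sums was 6.58, 6.52 and 6.62 in control, 6.70 and 7.29 in Shn-RNAi and 7.96 and 7.82 in Shn-RNAi puc. Taken as medians over members relative to the control mean, the cytosolic minus the mitochondrial log2 level was 0.00, 0.01 and 0.00 in control, 0.08 and 0.20 in Shn-RNAi and 0.23 and 0.13 in Shn-RNAi puc. A change of scaling shifts both sets of a library alike and leaves this gap nearly as it is. The control values lie near 0 by construction, because the controls set the reference.

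The partners that charge the same amino acid in the 2 compartments can be set against each other in each library without any scaling. There are 12 amino acids with 1 gene for each compartment. The log2 ratio of cytosolic to mitochondrial level per kb was above control for 8 of 12 pairs in each of the RNAi groups, with a median difference of 0.12 in Shn-RNAi and 0.19 in Shn-RNAi puc. Between the RNAi groups 9 of 12 were higher with the allele, with a median difference of 0.11. An exact permutation test of 2 libraries against 3 cannot give a p below 0.1, nor one of 2 against 2 a p below 0.333, so no pair could pass a threshold of 0.05.

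Methionine showed the widest split of the 12 pairs. The log2 ratio of MetRS to MetRS-m was 2.11, 2.25 and 2.07 in control, 3.23 and 2.76 in Shn-RNAi and 3.62 and 3.40 in Shn-RNAi puc. None of the 3 groups overlapped another. In each of the 4 RNAi libraries MetRS lay above and MetRS-m below every control library. The mean ratio exceeded control by 0.85 in Shn-RNAi and 1.37 in Shn-RNAi puc on the log2 scale (exact permutation p = 0.1 for each, 2-sided, the smallest the design allows). As a linear ratio of levels per kb, MetRS stood at 4.32, 4.77 and 4.19 times MetRS-m in control, 9.36 and 6.75 times in Shn-RNAi and 12.3 and 10.6 times in Shn-RNAi puc. The size of this ratio depends on the length used, and per coding kb it was 1.94, 2.14 and 1.88, then 4.20 and 3.03, then 5.54 and 4.75. The change between groups is the same under either length.

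The asparagine and tryptophan pairs also stood above control with the allele. The ratio of AsnRS to AsnRS-m per kb was 6.85, 8.08 and 6.42 in control, 8.44 and 10.3 in Shn-RNAi and 12.2 and 9.75 in Shn-RNAi puc, with no overlap of control and either group. For TrpRS over TrpRS-m it was 4.94, 3.93 and 4.21, then 4.64 and 6.67, then 7.13 and 6.21, so that Shn-RNAi overlapped control. TrpRS-m itself stood at 9.29 and 10.3 CPM in Shn-RNAi puc (log2 change -0.44, SE 0.22, edgeR adjusted p = 0.22). The alanine pair was also fully apart in the 3 groups, but by little, at 4.31, 4.17 and 4.52, then 4.77 and 4.56, then 5.03 and 4.88. The arginine pair was lower than control: the ratio of ArgRS to ArgRS-m was 5.22, 5.11 and 6.66 in control, 5.06 and 4.01 in Shn-RNAi and 4.74 and 4.77 in Shn-RNAi puc. The pairs for alanine, aspartate, cysteine, isoleucine, leucine, serine, tyrosine and valine differed from control by -0.32 to 0.29 on the log2 scale in Shn-RNAi and by -0.06 to 0.26 in Shn-RNAi puc.

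**Figure D4:**
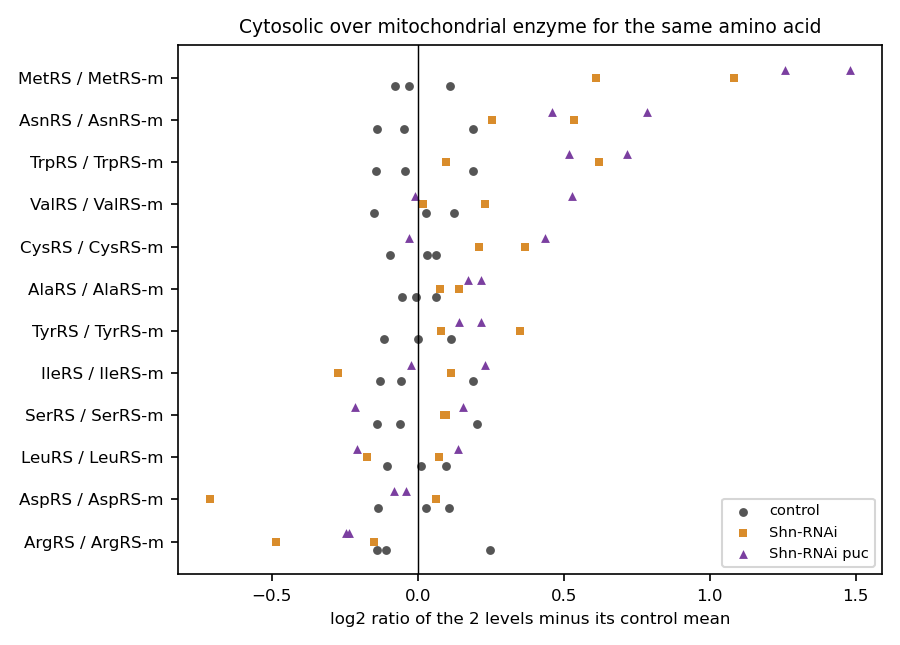
Log2 ratio of the cytosolic to the mitochondrial enzyme for the same amino acid, minus its control mean, for 12 amino acids; each symbol is 1 library. The methionine and alanine pairs are those of the 12 in which the 3 groups are fully apart, in the order control, Shn-RNAi, Shn-RNAi puc; the methionine means exceed control by 0.85 and 1.37 and the alanine means by 0.11 and 0.19.

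For proline, glutamate and phenylalanine the genes are not matched singly. GluProRS carries both the glutamyl and the prolyl activity of the cytosol and stood at 53.9, 60.6 and 51.5 CPM in control, at 76.0 and 48.6 CPM in Shn-RNAi and 66.0 and 52.2 CPM in Shn-RNAi puc. The groups overlapped, with library 1 of each RNAi group above every control library and library 2 within or below the controls, whereas ProRS-m lay below every control library in all 4. The ratio of GluProRS to ProRS-m per kb was 2.18, 2.40 and 1.95 in control, 5.01 and 2.55 in Shn-RNAi and 3.85 and 3.52 in Shn-RNAi puc, with no overlap of control and either group. Their transcripts differ in length, at 5405 and 1517 nt. With the length trend described below taken out, their log2 changes were -0.14 and -0.46 in Shn-RNAi, against 0.17 and -0.57 as measured. In Shn-RNAi puc they were -0.12 and -0.60, against 0.09 and -0.67. The ratio of GluProRS to GluRS-m was 3.64, 4.78 and 2.61, then 6.56 and 3.86, then 5.42 and 3.75, and both RNAi groups overlapped control. Among the phenylalanine genes, the log2 ratio of alpha-PheRS to beta-PheRS per kb was -0.07, -0.06 and -0.01 in control, 0.08 and 0.28 in Shn-RNAi and 0.11 and 0.23 in Shn-RNAi puc. The ratio was higher in all 4 RNAi libraries than in every control library. In CPM, alpha-PheRS stood at 43.9 and 36.5 in Shn-RNAi puc. The ratio of alpha-PheRS to PheRS-m per kb was 0.71, 0.82 and 0.77 in control. It overlapped control in Shn-RNAi (0.81 and 0.79) and lay above it in Shn-RNAi puc (0.95 and 0.97). The ratio of beta-PheRS to PheRS-m overlapped control in both RNAi groups.

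The changes differed with transcript length. Across the 35 synthetases the log2 change in Shn-RNAi was larger with the length of the longest transcript (Pearson r = 0.56, Spearman rho = 0.66, a description across genes that share the libraries), and over all genes rho was 0.31. Of the 17 synthetases longer than 2.477 kb, 10 had a log2 change above 0, and of the 18 others 0 did. In Shn-RNAi puc rho was 0.54, with 13 of 17 and 4 of 18 above 0. The libraries differed in this respect. Each gene's log2 level was taken relative to its mean over all 7 libraries. The median of the top quartile of length minus that of the bottom quartile was -0.31, 0.00 and -0.39 in the controls. It was 0.59 and -0.25 in Shn-RNAi and 0.08 and 0.32 in Shn-RNAi puc.

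With the trend on length over all genes taken out of each library, rho among the synthetases was 0.22 in Shn-RNAi and 0.16 in Shn-RNAi puc. The gap between the sets was narrower in both groups: the medians were -0.10 for the cytosolic and -0.19 for the mitochondrial set in Shn-RNAi, and -0.09 and -0.23 in Shn-RNAi puc. In Shn-RNAi puc 3 mitochondrial enzymes then passed the test, all lower: MetRS-m at a log2 change of -1.08 (edgeR adjusted p = 0.017), ProRS-m at -0.60 (edgeR adjusted p = 0.039) and PheRS-m at -0.40 (edgeR adjusted p = 0.046). In the same comparison the corrected fit called 756 of all 9049 genes lower and 997 higher, so calls were common there. MetRS-m has 1 of the longest transcripts of the set at 4314 nt and ProRS-m (1517 nt) and PheRS-m (1526 nt) are among the shortest. The length used for MetRS-m is that of the longest of its 3 annotated transcripts, and its coding length is 1746 nt. Which of these transcripts the midgut expresses was not tested, and the corrected change of MetRS-m depends on that length.

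**Figure D5:**
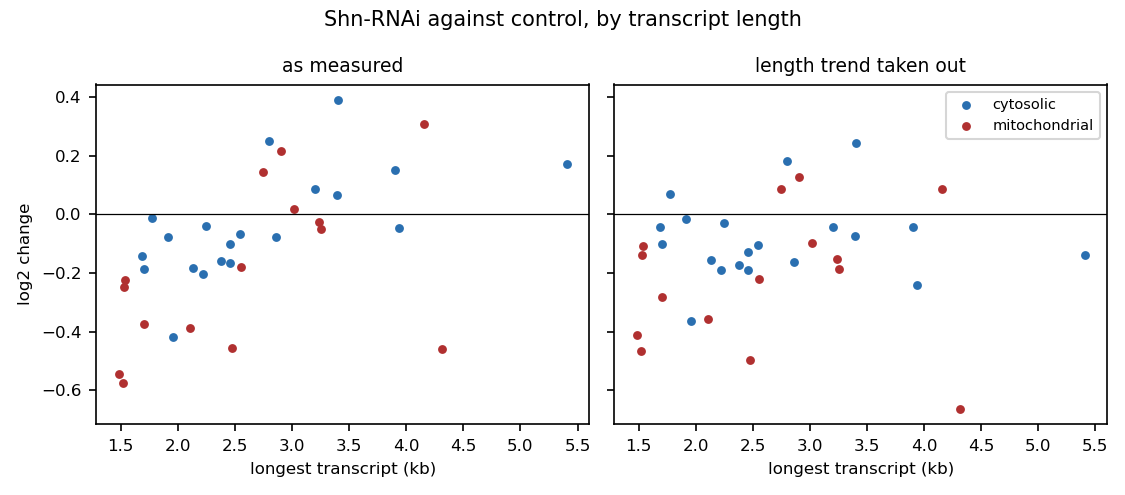
Log2 change of the 35 synthetases in Shn-RNAi against control by length of the longest transcript, as measured (left) and with the trend of all genes on length taken out of each library (right); blue is cytosolic and red mitochondrial. On the left all 18 genes of 2.477 kb or less lie below 0 and 10 of the 17 longer ones lie above it; on the right the rise with length is smaller (rho 0.22 against 0.66).

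Scaling shifted the medians of both sets together with that of all genes. With total counts in place of TMM, the median of all genes moved to 0.21 in Shn-RNAi and 0.35 in Shn-RNAi puc, the cytosolic medians to 0.12 and 0.34 and the mitochondrial medians to -0.032 and 0.14, so that the cytosolic sign in Shn-RNAi and the mitochondrial sign in Shn-RNAi puc flipped. Relative to the median of all genes, the cytosolic set stood at -0.10 and -0.01 and the mitochondrial set at -0.25 and -0.21 under that scaling, against -0.10, 0.00, -0.25 and -0.21 under TMM. Under total counts MetRS (log2 change 0.81, adjusted p = 0.033) and ThrRS (0.65, adjusted p = 0.034) were called higher in Shn-RNAi puc by the edgeR test, where the median gene stood 0.35 higher too. As a share of all counts, the cytosolic synthetases took 0.118% to 0.137% in control, 0.126% to 0.155% in Shn-RNAi and 0.158% to 0.166% in Shn-RNAi puc, and the mitochondrial ones 0.0179% to 0.0211%, 0.0173% to 0.0232% and 0.0199% to 0.0212%.

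Of the 3 scaffold proteins that hold the multi-synthetase complex together, AIMP1, AIMP2 and AIMP3, 0 were called in any comparison, where 9.62% and 15% of all genes were called against control. Their median log2 changes were -0.23 in Shn-RNAi and -0.31 in Shn-RNAi puc beside 0.03 and 0.02 for all genes. AIMP1 stood at 35.8, 29.3 and 35.4 CPM in control, at 21.6 and 37.7 CPM in Shn-RNAi and at 22.5 and 23.5 CPM in Shn-RNAi puc (log2 change -0.54, edgeR adjusted p = 0.16). Of 5 genes of mitochondrial tRNA charging, 0 were called, with medians of -0.26 and -0.46. GatC, a subunit of the amidotransferase that converts glutamyl-tRNA to glutaminyl-tRNA in mitochondria, stood at 19.6, 24.3 and 21.8 CPM in control, at 14.8 and 15.9 CPM in Shn-RNAi and 13.1 and 17.7 CPM in Shn-RNAi puc (log2 changes -0.52 and -0.51, edgeR adjusted p = 0.10 and 0.090). Slimp, a mitochondrial relative of the seryl enzyme that does not charge tRNA, was on the other side, at 7.52, 7.25 and 7.72 CPM, then 9.02 and 13.5 CPM, then 10.1 and 10.03 CPM (log2 changes 0.58 and 0.43, edgeR adjusted p = 0.10 and 0.19). CG1750, of the same list, had log2 changes of -0.26 and -0.60 (edgeR adjusted p = 0.58 and 0.18). Of 4 genes of mitochondrial tRNA maturation, 0 were called, with medians of -0.17 and -0.26. Among them scu, a subunit of mitochondrial RNase P, had log2 changes of -0.49 and -0.60 with edgeR adjusted p of 0.16 and 0.082. The log2 changes of rswl were -0.30 and -0.32, and those of mldr differed in sign, at 0.32 and -0.19.

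In the response to uncharged tRNA and amino acid shortage, the kinase Gcn2 and the transcription factor crc, the fly ATF4, act when charged tRNA runs short, and in mammals synthetase genes are among the known ATF4 targets. Of 17 genes of this list, 2 rose in Shn-RNAi, 3 rose in Shn-RNAi puc, and 0 fell, with median log2 changes of 0.23 and 0.19 over the list. Of all genes 6.06% and 8.76% were called higher. The list was chosen with results of these data known. Thor, the fly 4E-BP and an inhibitor of cap-dependent translation, stood at 206, 180 and 207 CPM in control, at 654 and 1287 CPM in Shn-RNAi and 971 and 719 CPM in Shn-RNAi puc (log2 changes 2.29 and 2.09, edgeR adjusted p = 0.0039 and 0.0046). The TOR inhibitors of the REDD1 family rose in 1 group each: chrb in Shn-RNAi (log2 change 1.12, edgeR adjusted p = 0.019) and scyl in Shn-RNAi puc (0.88, edgeR adjusted p = 0.026). In the other RNAi group chrb stood at 0.71 (edgeR adjusted p = 0.066) and scyl at 0.35 (0.31), and the difference between the groups was not called for either. CG11899 rose in Shn-RNAi puc (0.89, edgeR adjusted p = 0.0080). The list did not move in 1 direction. Below every control library in both RNAi groups, but not called, were aay (log2 changes -0.58 and -0.71), Shmt (-0.37 and -0.54) and Sesn (-0.37 and -0.45). Above every control library in both, also without a call, were Nmdmc (0.84 and 0.87) and Xrp1 (0.34 in each). The transcript of crc itself stood at 332, 353 and 300 CPM in control, at 419 and 353 CPM in Shn-RNAi and 354 and 416 CPM in Shn-RNAi puc, with a log2 change of 0.23 in each and no call.

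Of 9 amino acid transporters tested, 0 were called in Shn-RNAi and 1 rose in Shn-RNAi puc, CG5535 (log2 change 0.85, edgeR adjusted p = 0.019), beside the same 9.62% and 15% of all genes called; the medians were 0.01 and -0.17. The cationic amino acid transporter slif stood at 222, 209 and 216 CPM in control, at 150 and 59.6 CPM in Shn-RNAi and 115.3 and 85.3 CPM in Shn-RNAi puc, a difference of -1.04 and -1.10 on the log2 scale that did not pass the test (edgeR adjusted p = 0.10 and 0.074). Of 12 genes of Myc and TOR growth control, 0 were called in any comparison, beside the same background, with medians of 0.14 and 0.05. The smallest p of that list in Shn-RNAi belonged to foxo, a transcription factor held back by insulin signalling (log2 change 0.45, edgeR adjusted p = 0.21), and raptor, a TOR complex subunit (0.53, edgeR adjusted p = 0.36); in Shn-RNAi puc foxo and mio, a regulator of TOR, had log2 changes of 0.37 and 0.19. In the comparison of the 2 RNAi groups 0 genes of these 6 lists were called.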

How the data were processed

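The deposited values are whole-number counts per gene in 7 libraries, unscaled. Salmon 1.0.0, DESeq2 and the build BDGP6 are listed in the submitters' processing notes; their roles, any rounding and the use of strand are not given in the sources used here. Column names give the group and not the sample, so libraries are numbered by column within a group. Nothing says that they came from separate animals or pools, so p-values measure only the spread between these libraries. The 35 members and the 6 related gene lists were chosen with earlier results of these data known. Values in every library are given for members called and for the 4 of each compartment with the smallest p per comparison. They are also given for the highest and lowest level per kb and for same amino acid partners. Of each related list, the genes named are those called, the 2 with the smallest p in each comparison with control, and some others.

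In R 4.3.3 with edgeR 4.0.16, filterByExpr by group kept 9076 genes of 10902, all 35 members among them, with at least 99.8% of each library's counts. One quasi-likelihood model with TMM scaling held the 7 libraries in 3 groups, with 4 residual degrees of freedom. 2-sided p-values were Benjamini-Hochberg adjusted across all 9076 genes, with calls made below 0.05. Adjusted p-values are edgeR's unless DESeq2 is named; SE is the log2 change over the root of the F statistic, and intervals are 95%. The scripts were tested on simulated counts. Lengths and positions come from Ensembl's BDGP6.54 annotation, which held 10869 of 10902 symbols (99.7%); sequences and promoter motifs were not analysed here. No pair of libraries of a group agreed within sampling noise. Alternatives were DESeq2 1.42.0, other scalings and filters, the 50 most abundant genes left out, fits of the 2 groups compared, a length correction, each library left out, and total-count scaling and a replicate block, both chosen after the data were seen.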

Additional observations from a re-analysis of the deposited data

How the results depend on the processing

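Of 691 values recomputed under the alternatives, 617 were counted as unchanged. Tested changes of single genes had to keep their direction and side of the threshold. Counts of called genes had to stay within 1.5-fold. Medians and gaps, which had no test, had to stay within the spread between replicates, whatever their sign. Among single genes, the reversed values were those of AspRS-m and AsnRS in Shn-RNAi puc against Shn-RNAi. AspRS-m stood at 0.096 without Shn-RNAi library 1, and AsnRS at -0.029 without Shn-RNAi puc library 1. With each library left out they ran from -0.49 to 0.096 and from -0.029 to 0.36. Upper-quartile scaling moved the mitochondrial median in Shn-RNAi puc to -0.24. DESeq2 called 93 genes between the RNAi groups (13 with edgeR). A fit of only the 2 groups compared called 2206 genes in Shn-RNAi puc (1362 with all libraries) and 5 synthetases, ProRS-m, MetRS-m, AsnRS-m and PheRS-m lower and MetRS higher. The length correction gave 3 synthetases in Shn-RNAi puc, a cytosolic median there of -0.086, 29 genes between the RNAi groups and a mitochondrial median of -0.067 between them. Total-count scaling gave cytosolic, mitochondrial and all-gene medians of 0.12, -0.032 and 0.21 in Shn-RNAi, 0.34, 0.14 and 0.35 in Shn-RNAi puc and 0.21, 0.11 and 0.13 between them, with 2 synthetases called in Shn-RNAi puc. The cause of these shifts was not tested.

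With each library left out in turn, the genes called ran from 285 to 835 in Shn-RNAi (873 with all), from 172 to 1872 in Shn-RNAi puc and from 4 to 13 between the RNAi groups, and the synthetases from 0 to 1, from 0 to 3 and 0 throughout. Counts in Shn-RNAi were 285 and 370 with control libraries 1 and 3 dropped, 454 with Shn-RNAi library 2 dropped, and 470 and 473 with Shn-RNAi puc libraries 1 and 2 dropped. Counts in Shn-RNAi puc were 440 and 588 without control libraries 1 and 3, and 289 and 172 without its own libraries 1 and 2; between the RNAi groups these last left 4 each, and Shn-RNAi library 2 left 7. In Shn-RNAi the cytosolic median ran from -0.08 to -0.04, the mitochondrial from -0.28 to -0.17 and that of all genes from -0.02 to 0.03. In Shn-RNAi puc they ran from -0.065 to 0.10, from -0.21 to -0.079 and from 0.00 to 0.02. Between the RNAi groups they ran from -0.029 to 0.15, from -0.15 to 0.092 and from -0.02 to 0.04. The mean gap between compartments ran from 0.085 to 0.20 in Shn-RNAi and from 0.13 to 0.23 in Shn-RNAi puc. The labels number the samples without a number shared across groups, while the column names repeat 1 and 2 and nothing ties these to a batch. Same-numbered libraries did not deviate together throughout (r of deviations from group means -0.16 to 0.22). A fit with that number as a replicate block, chosen after the data were seen and with 2 residual degrees of freedom, called 321 genes in Shn-RNAi, 468 in Shn-RNAi puc and 11 between the RNAi groups, and 0 synthetases in each; in Shn-RNAi puc the mitochondrial median was -0.076 and MetRS-m -0.84 (adjusted p = 0.13). Counts per member and library ran from 54 to 3936.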
